A study of Mus musculus with 3 samples.

Results

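The genes described here encode the enzymes that keep glutathione and thioredoxin reduced, remove superoxide and peroxides, and conjugate electrophiles to glutathione, together with partner proteins named after thioredoxin. They were chosen by symbol alone: a gene was taken if its symbol starts with Gst, Gpx, Prdx, Txn or Glrx, or is Sod1, Sod2, Sod3, Cat, Gclc, Gclm, Gsr, Gss, Hmox1, Hmox2 or Nqo1, and if a probe set is annotated to that symbol and no other. The rule found 49 of the 8251 genes of the table, through 64 of the 12422 probe sets that are not controls, and 1 probe set a gene was used. Not every member is an antioxidant enzyme: Txnip is an inhibitor of thioredoxin, Txnl4a is a component of the spliceosome with a thioredoxin-like fold, and the Txndc genes encode thioredoxin-domain proteins, several of which fold proteins in the endoplasmic reticulum.

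All arrays came from neural retina of mice lacking Rp1 (Rp1-/-), on mixed genetic background of the strains 129/SvEv and C57BL/6. Retinas were taken at postnatal day 21, between 1 and 2 pm, and the retinas of 3 to 4 animals were pooled for each RNA. The 3 pools, called replicates 1 to 3, form a single group with no order. No control retina was analysed here, so every statement concerns the level of a gene and its spread between these knockout pools, and nothing was tested between conditions.

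Glutathione is a tripeptide made by glutamate-cysteine ligase and glutathione synthetase, spent by glutathione peroxidases and transferases, and returned to its reduced form by glutathione reductase. The thioredoxin system runs beside it: thioredoxin reductases reduce thioredoxins, which reduce peroxiredoxins. Photoreceptors carry much polyunsaturated lipid, consume much oxygen and are lit, and these enzymes are known for limiting lipid peroxidation there. Many of the genes are targets of the transcription factor NRF2 (Nfe2l2), which binds antioxidant response elements.

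The values are scaled array signals, linear intensities with no unit, and a signal was above background where it exceeded 160.3, 80.7 and 107.1 on the arrays of replicates 1, 2 and 3, the 95th percentile of the 19 probe sets that detect bacterial or yeast RNA. Levels are compared between pools within a gene and never between genes, whose probes respond differently. The range of a gene is its highest minus its lowest log2 signal over the 3 arrays, so that a range of 1 is a 2-fold difference. The 3′ to 5′ signal ratio lay between 0.845 and 0.929 for the Gapdh control probe sets and between 1.31 and 1.499 for those of actin. Rod markers were above background throughout (5 of 5 genes with a probe set), as were Müller glia markers (6 of 6) and lens markers (6 of 6), and the rest of the marker lists differed between arrays as given further on. In pooled tissue, fewer cells of a type and less RNA per cell cannot be told apart.

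Most of the antioxidant genes gave signal in all pools. Of the 49 genes, 39 (79.6%) were above background on every array, against 60.7% of all genes, 7 were above it on some arrays, and 3 on none, against 15.7% of all genes. Complete in this sense were the genes of glutathione synthesis and reduction (4 of 4), the peroxiredoxins (3 of 3), the group of haem oxygenases and quinone reductase (3 of 3) and the lone glutaredoxin. Of the glutathione peroxidases 5 of 6 were above background on all arrays, of the superoxide dismutases and catalase 3 of 4, of the thioredoxin group 11 of 13 and of the glutathione S-transferases 9 of 15. Glutathione S-transferases supplied 6 of the 10 genes that fell short of background on at least 1 array. Their share above background on all arrays, 9 of 15, was nonetheless close to the 60.7% of all genes. On the arrays of replicates 1, 2 and 3, 39, 46 and 45 of the 49 genes were above background, and 5725, 6239 and 6075 of all genes. The limit was highest on the replicate 1 array, so a signal not above background there can exceed the limit of another array.

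**Figure D1:**
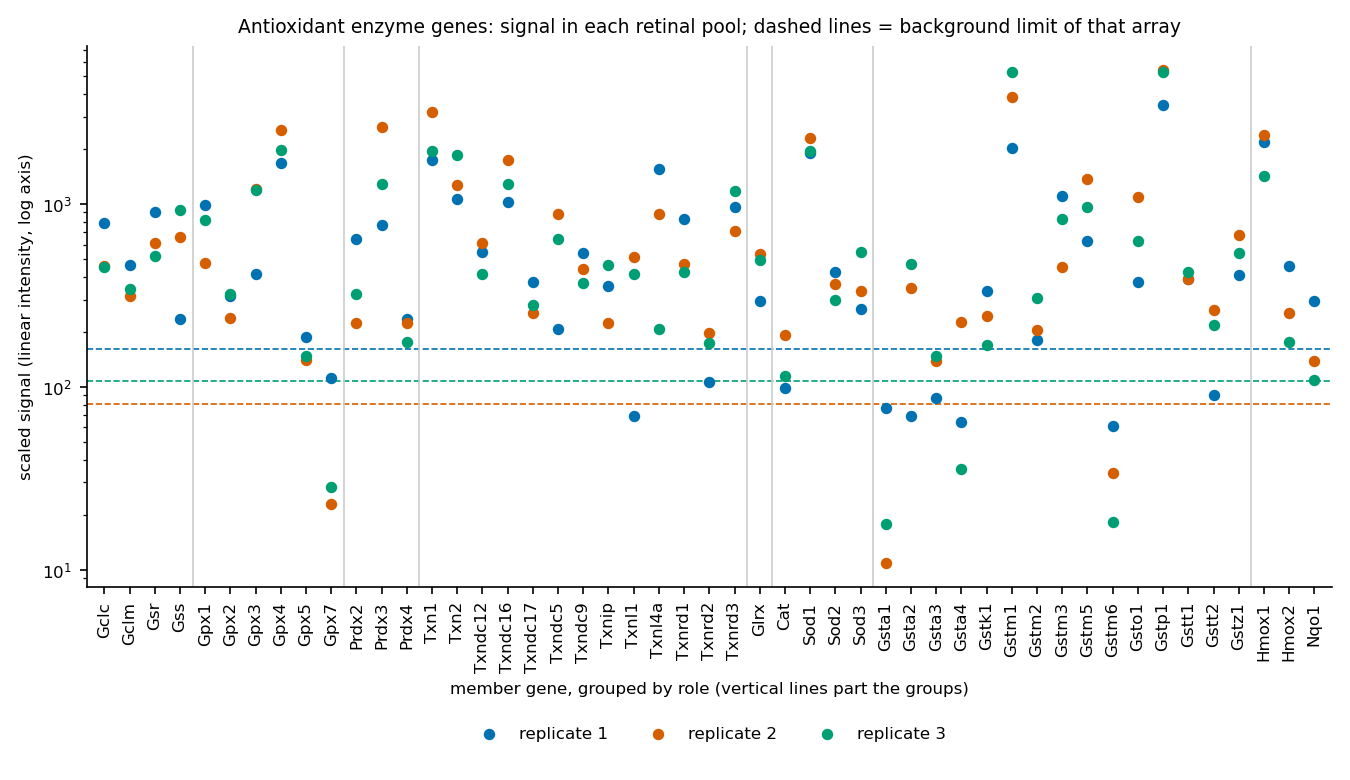
Scaled signal (log axis) of the 49 member genes in replicates 1, 2 and 3, 1 point per array, with genes grouped by role. Dashed lines are the background limits of 160.3, 80.7 and 107.1 for the array of the same colour, and 10 genes have a point under its line, 4 of them alpha-class transferases.

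The 4 genes that make and regenerate glutathione parted into 3 that were highest in replicate 1 and 1 that was lowest there. Of all genes above background on every array, 42.6% were highest and 36% lowest in that pool. Gclc, the catalytic subunit of glutamate-cysteine ligase and the rate-limiting step of synthesis, gave 787, 457 and 449.9 in replicates 1, 2 and 3 (565 ± 193, SD, n = 3). Gclm, its modifier subunit, gave 462, 315 and 343 (373 ± 77.9, n = 3). Gsr, the glutathione reductase, gave 902, 610.0 and 518 (676 ± 200.4, n = 3). In each of these genes replicate 1 stood above the other pools, by 1.46-fold over the lowest for Gclm and by 1.75-fold and 1.74-fold for Gclc and Gsr. The Gclm range of 0.55 became 0.19 with a common array median and 0.24 after quantile normalization. Gss, the synthetase of the second step, ran the other way, at 236, 657 and 929, a range of 1.98 on the log2 scale. A further Gss probe set did not follow this: it gave 476 and 493 in replicates 1 and 3 and 51.9 in replicate 2, which is below background there. The low replicate 1 of Gss is therefore seen at 1 of its 2 probe sets. The signal of 236 there lies close to the highest control probe set of that array, 235.

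Glutathione peroxidases differed in which pool was low. Gpx4, the membrane-lipid peroxidase that photoreceptors need to survive, gave 1679, 2552 and 1980.4 (2070.2 ± 443, n = 3), and the arrays lay within 1.52-fold of each other. Gpx1, the cytosolic enzyme, gave 988, 473 and 823, and replicate 2 stood below the other pools (range 1.06). Gpx3, the peroxidase secreted into plasma and extracellular fluid, gave 417 in replicate 1 and 1214 and 1197 in replicates 2 and 3, with a range of 1.54 that lies wholly between replicate 1 and the other pools. Gpx2, known from the gut epithelium, gave 315, 239 and 323. Gpx5, known from the epididymis, gave 187, 141 and 147, close to the background limits, and its other probe set was above background in replicate 2 alone, at 87.0. Gpx7, an enzyme of the endoplasmic reticulum, was above background on no array, between 22.9 and 111.

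Among the peroxiredoxins, which destroy hydrogen peroxide through a reactive cysteine, Prdx3 had the widest range. Prdx3, the mitochondrial enzyme, gave 767, 2652 and 1291, so that replicate 2 was 3.46-fold above replicate 1 and replicate 3 lay between them. Prdx4, the enzyme of the secretory pathway, gave 234, 224 and 175 (211 ± 31.8, n = 3), an even level over the pools. Its replicate 1 signal lies just under the highest control probe set of that array, 235. Prdx2, a cytosolic enzyme that is also among the abundant proteins of red blood cells, gave 647, 224 and 322 at the probe set chosen by the rule, highest in replicate 1. Its other bright probe set, with the suffix _g for probes shared within a gene group, gave 3928, 9556 and 7094, lowest in replicate 1, and the third was above background on no array. The probe sets of Prdx2 thus disagree in direction. The red blood cell markers had their highest summed signal in replicate 2, with values of 5535, 31736 and 8295 over 5 genes. Hba-a1 alone gave 25566 of the sum in replicate 2, Slc4a1 was lowest in that pool (113, 109 and 240.5), and Epb42 was above background on no array. Their part in the Prdx2 signal was not tested.

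The cytosolic and the mitochondrial thioredoxin were both lowest in replicate 1, except that quantile normalization moves the lowest array of Txn1. Txn1, the cytosolic thioredoxin, gave 1731, 3205 and 1941 (2292 ± 797, n = 3), with replicate 2 above the other pools. Txn2, its mitochondrial counterpart, gave 1068, 1272 and 1864, highest in replicate 3. The reductases that recharge them behaved differently. Txnrd1, the cytosolic reductase, gave 824, 469 and 425, highest in replicate 1 like Gsr. Txnrd3, a reductase with a glutaredoxin domain known from testis, gave 966, 708 and 1184, while its other probe set was above background on no array. Txnrd2, the mitochondrial reductase, gave 197 and 174 in replicates 2 and 3 and was not above background in replicate 1, at 106. The excess of replicate 2 over that pool was at least 1.23-fold. Glrx, the glutaredoxin that removes glutathione from proteins, gave 295, 536 and 495, lowest in replicate 1.

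Txnip, which binds and inhibits thioredoxin and limits glucose uptake, gave 356, 223 and 463 at the probe set used, lowest in replicate 2. Its other probe set gave 323, 255 and 119, lowest in replicate 3, so neither the high nor the low pool was shared. The thioredoxin-domain proteins of the secretory pathway differed among themselves. Txndc5, a protein disulfide isomerase, gave 207 in replicate 1 and 883 and 641 in the other pools, a 4.27-fold range. Its replicate 1 signal lies under the highest control probe set of that array, 235. Txndc12 gave 550.0, 613 and 415, and Txndc16 gave 1031, 1741 and 1295. The cytosolic proteins Txndc17 and Txndc9 gave 373, 254 and 279 and 539, 441 and 369. Their ranges of 0.55 and 0.55 were close to the 0.56 of Txndc12.

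The widest range of the whole set belonged to a thioredoxin-like protein that is no antioxidant enzyme. Txnl4a, the spliceosome protein, gave 1554, 886 and 207, a range of 2.90 on the log2 scale and the largest among the 39 genes above background on all arrays. Replicate 3 was low in this gene, whereas most other wide ranges set replicate 1 apart. Txnl1, a thioredoxin-like protein bound to the proteasome, was not above background in replicate 1, at 69.6, and reached 514 in replicate 2 and 413 in replicate 3. Its replicate 2 signal was at least 3.21-fold that of replicate 1.

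Of the superoxide dismutases, Sod3 had a range over 1 and the other two did not. Sod1, the cytosolic copper-zinc enzyme, gave 1912, 2306 and 1941 (2053 ± 219.8, n = 3), a range of 0.27 that became 0.72 with a common array median. Sod2, the manganese enzyme of mitochondria, gave 425, 364 and 299. Sod3, the secreted enzyme bound to extracellular matrix, gave 266, 336 and 547, with replicate 3 above the other pools (range 1.04). Catalase, the peroxisomal enzyme that breaks down hydrogen peroxide, was measured by 2 probe sets of the gene Cat that do not give the same picture. The one used gave 98.9, 192 and 114 and was not above background in replicate 1, while the other, of the family-shared _f type, was above it on all arrays, at 972, 769 and 1331. One reached its highest signal in replicate 2 and the other its lowest.

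The glutathione S-transferases, which attach glutathione to electrophiles, were spread over 7 classes. The pi-class gene Gstp1 gave 3474, 5407 and 5252 (4711 ± 1074, n = 3), lowest in replicate 1. The theta-class gene Gstt1 gave 389, 388 and 424, a range of 0.13 that became 0.45 with a common array median and 0.34 after quantile normalization. Its class mate Gstt2 gave 264 and 219 in replicates 2 and 3 and was not above background in replicate 1, at 90.4, at least 1.65-fold lower there than in replicate 2. The zeta-class gene Gstz1, an enzyme of tyrosine breakdown, gave 409.7, 681 and 539.7. The omega-class gene Gsto1, which also reduces dehydroascorbate, gave 373, 1094 and 627, a 2.93-fold range with replicate 2 highest. The kappa-class gene Gstk1, a mitochondrial and peroxisomal enzyme, gave 336, 245 and 169, a range of 0.99 that lies just under the threshold.

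The mu class gave 4 of 5 genes above background on all arrays and 3 of them with a range of 1 or more. Gstm1 gave 2030.3, 3868 and 5270.2, a 2.60-fold range with replicate 1 lowest. Gstm5 gave 630.1, 1373 and 965, also lowest in replicate 1. Gstm3 gave 1105, 453 and 828, lowest in replicate 2, and Gstm2 gave 179.6, 206 and 307. Gstm6 was above background on no array, between 18.3 and 60.9. The mu-class genes are close copies of each other and 8 of their 12 probe sets carry the suffix _f or _r that marks probes shared by a family or picked with relaxed rules, so their signals may include each other. Of the probe sets above background on all arrays, the Gstm1 pair and the Gstm2 pair were each highest in replicate 3. Their lowest arrays differed, since the second of each pair was lowest in replicate 2, at 294 for Gstm1 and 383 for Gstm2. The Gstm3 and Gstm5 probe sets did not share their highest array.

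Alpha-class transferases were the group with the least signal over background. None of the 4 was above it on all arrays. Gsta2 gave 346 and 469 in replicates 2 and 3 and was not above background in replicate 1, at 68.9, which puts replicate 3 at least 2.93-fold over it. Gsta3 gave 139 and 148 in the same pools and 87.1 in replicate 1, where it was not above background. The replicate 1 limit of 160.3 exceeds all of these signals, so no fold over that pool can be given. Gsta4, which conjugates the lipid peroxidation product hydroxynonenal, was above background in replicate 2 alone, at 226, against 63.9 and 35.5 in replicates 1 and 3, at least 2.11-fold above replicate 3. Gsta1, a near-identical copy of Gsta2, was above background on no array, between 10.9 and 76.8. The absence of signal at these probe sets in a pool sets an upper bound for them and does not show that the transcripts were absent.

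Haem oxygenases and the quinone reductase were above background on all arrays. Hmox1, the inducible oxygenase that is known as a marker of oxidative stress, gave 2184, 2386 and 1420 (1997 ± 509.6, n = 3), with replicate 3 below the other pools. Hmox2, the constitutive oxygenase of neurons, gave 458, 253 and 177, highest in replicate 1. Nqo1, a reductase of quinones and a classical NRF2 target, gave 296, 138 and 108, where the lowest value lies just over the limit of 107.1, and its second probe set was above background on no array. With no control retina, the level of Hmox1 cannot be read as induced or not induced.

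Spread between the pools is given beside that over all genes. The median SD on the log2 scale was 0.46 for the 39 genes (quartiles 0.30 and 0.68). Over the 5006 genes of the array that met the same limit it was 0.36 (quartiles 0.23 and 0.55). A range of 1 or more was reached by 15 of the 39 genes (38.5%), where 28.3% of all genes reached it. With the median control probe set as background limit these shares became 42.6% of 47 genes and 42.9% of all genes. The excess was absent at this limit, the lowest of those tried. With the highest control as limit the shares were 38.2% and 26.4%. A limit at the arrays' own 40th percentiles gave 38.9% and 24.2%. The excess was not tested, and the shares do not show that the set stands apart. Without replicate 1 the count fell to 4 genes (8.89% of those above background, against 5.73% of all genes). Without replicate 2 it fell to 9 (23.1%, against 17.8%). The 15 were Gpx1, Gpx3, Gss, Gstm1, Gstm3, Gstm5, Gsto1, Hmox2, Nqo1, Prdx2, Prdx3, Sod3, Txndc5, Txnip and Txnl4a.

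**Figure D2:**
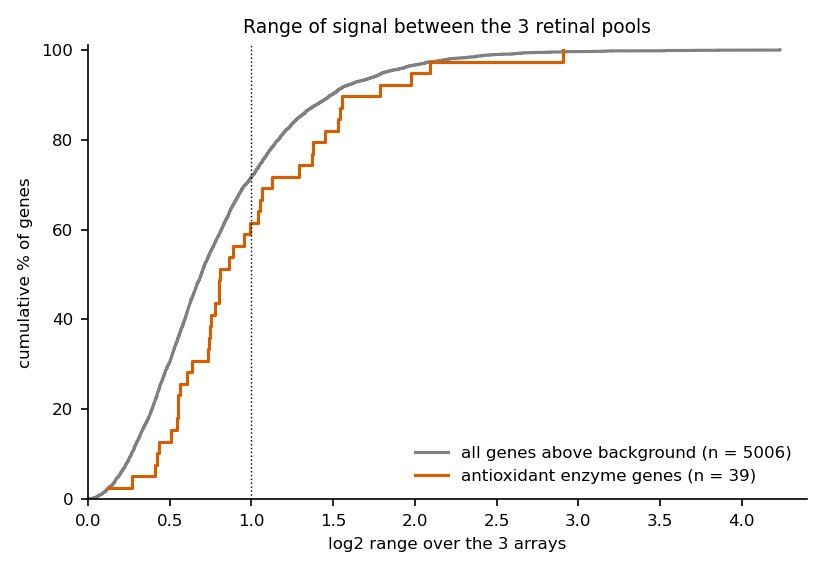
Cumulative percentage of genes by log2 range over the 3 arrays, for the 39 antioxidant genes and for all 5006 genes above background on every array, the 39 included. The dotted line marks a range of 1, past which lie 15 of the 39 genes and 28.3% of all genes.

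Replicate 1 was at one end of the range in 14 of those 15 genes, in both directions. It was lowest in 8 (Gpx3, Gss, Gstm1, Gstm5, Gsto1, Prdx3, Sod3 and Txndc5), where 32.4% of all genes with such a range were lowest in replicate 1. It was highest in 6 (Gpx1, Gstm3, Hmox2, Nqo1, Prdx2 and Txnl4a), against 58.5% of all such genes. Txnip was the remaining gene. The array that was highest in each of the 15 genes was the same after scaling to a common array median, and also after quantile normalization except for Gpx3, whose values in replicates 2 and 3 nearly coincide.

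**Figure D3:**
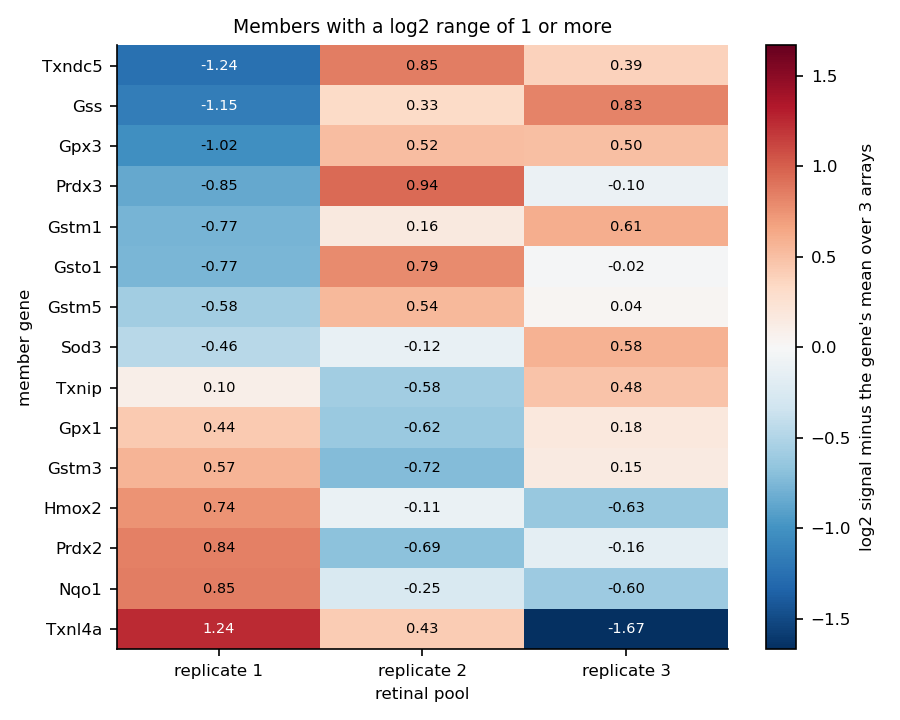
Log2 signal minus the gene's mean over the 3 arrays, for the 15 genes with a range of 1 or more, ordered by replicate 1. The upper 8 rows are lowest in replicate 1 and the lower 6 rows are highest there, with Txnip between them.

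Over all 39 genes, 16 were highest in replicate 1, 14 in replicate 2 and 9 in replicate 3, beside 42.6%, 33% and 24.4% of all genes. With a common array median the counts were 12, 19 and 8, so which pool leads depends on the scaling. Counts over all genes were not taken under that scaling, but the deviations of all genes shifted with it too, as given below. Replicates 1, 2 and 3 were lowest in 17, 10 and 12 of the genes, beside 36%, 32.4% and 31.6%. Replicates 2 and 3 were the most alike: a difference of 2-fold or more was seen between them in 3 of the 39 genes (Prdx3, Txnip and Txnl4a) and in 5.03% of all genes. Between replicates 1 and 2 it was seen in 10 of the 39 genes and 20.3% of all genes, and between replicates 1 and 3 in 9 of the 39 and 17.2%. Replicate 1 thus differed from the other pools over the whole array as well as in these genes. The median deviation of the 39 genes from the mean of the other pools was 0.12, 0.03 and -0.06 in replicates 1, 2 and 3, and that of all genes was 0.06, -0.01 and -0.04. Scaling the arrays to a common median moved the all-gene deviations to -0.28, 0.32 and -0.02, and those of the 39 genes to -0.22, 0.36 and -0.05, so their sign in replicate 1 rests on the scaling.

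Markers of tissues around the retina also set replicate 1 apart. The summed signal of 5 pigment epithelium and melanocyte markers came to 1422, 12026 and 7835 in replicates 1, 2 and 3. In replicate 1, 2 of the 5 were above background, and Tyrp1, Tyr and Rdh5 were not. The 7 markers of connective tissue and smooth muscle summed to 1775, 3449 and 4232, and Col1a2, Dcn and Acta2 were not above background in replicate 1, while Col1a1, Col3a1 and Lum were lowest in replicate 2. The 6 Müller glia markers summed to 12448, 19732 and 17126, but 2 of them went the other way: Glul (3557, 2389.8 and 1378) and Vim (475, 91.1 and 174) were highest in replicate 1. The 8 genes with a wide range and their lowest signal in replicate 1 were lowest in the same pool as these sums. The rod, lens, red blood cell and muscle sums were lowest in that pool too, so sharing it is not particular to these lists. The part of the surrounding tissues or of glia in the signal of the 8 genes was not tested. The 5 macrophage and microglia markers summed to between 1036 and 1307, and the 4 muscle markers to between 645 and 713, with Ptprc above background on no array. Members of these lists went in different directions. Acta1 (56.7, 186 and 206), Ckm (71.3, 299 and 266) and Cd68 (54.7, 211 and 255) were lowest in replicate 1 and not above background there. Aif1 (78.8, 33.7 and 129) was above background in replicate 3 alone and lowest in replicate 2. Tnnt3 (289, 68.8 and 36.9), Mylpf (228, 159 and 199) and C1qa (773, 525 and 550) were highest in replicate 1. The rod markers summed to 91819.8, 136051 and 92430.4 and the lens markers to 128047, 189531 and 133829, so both sums were highest in replicate 2. The rod gene Nrl (1468, 496 and 706) and the lens gene Bfsp1 (1123, 781 and 448) were highest in replicate 1 instead.

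**Figure D4:**
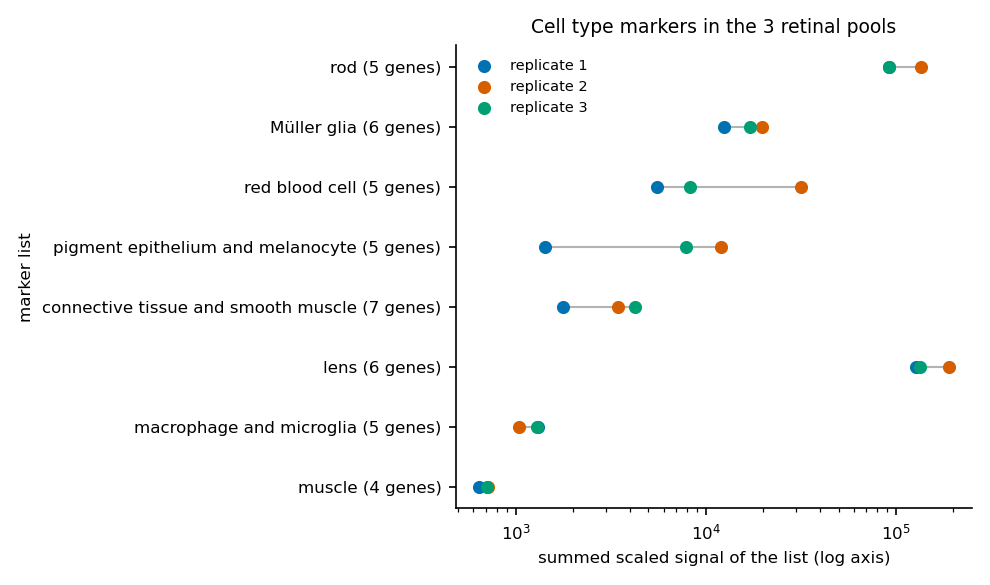
Summed scaled signal (log axis) of 8 lists of cell type markers in replicates 1, 2 and 3, with the number of genes in each list. The pigment epithelium and melanocyte list runs from 1422 in replicate 1 to 12026 in replicate 2, the widest of the lists.

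Probe sets of the same gene often disagreed about the pools. Of the 49 genes, 12 had more than 1 probe set, and 6 of these had 2 or more above background on all arrays. The highest array was shared in 2 of the 6, Gstm1 and Gstm2, and over all 794 such genes it was shared in 33.5%. For Gstm3, Gstm5, Prdx2 and Txnip the pool with the highest signal depends on the probe set. A range seen at 1 probe set is therefore a property of that probe set and pool until another one bears it out, and for 37 of the 49 genes no other was annotated.

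**Figure D5:**
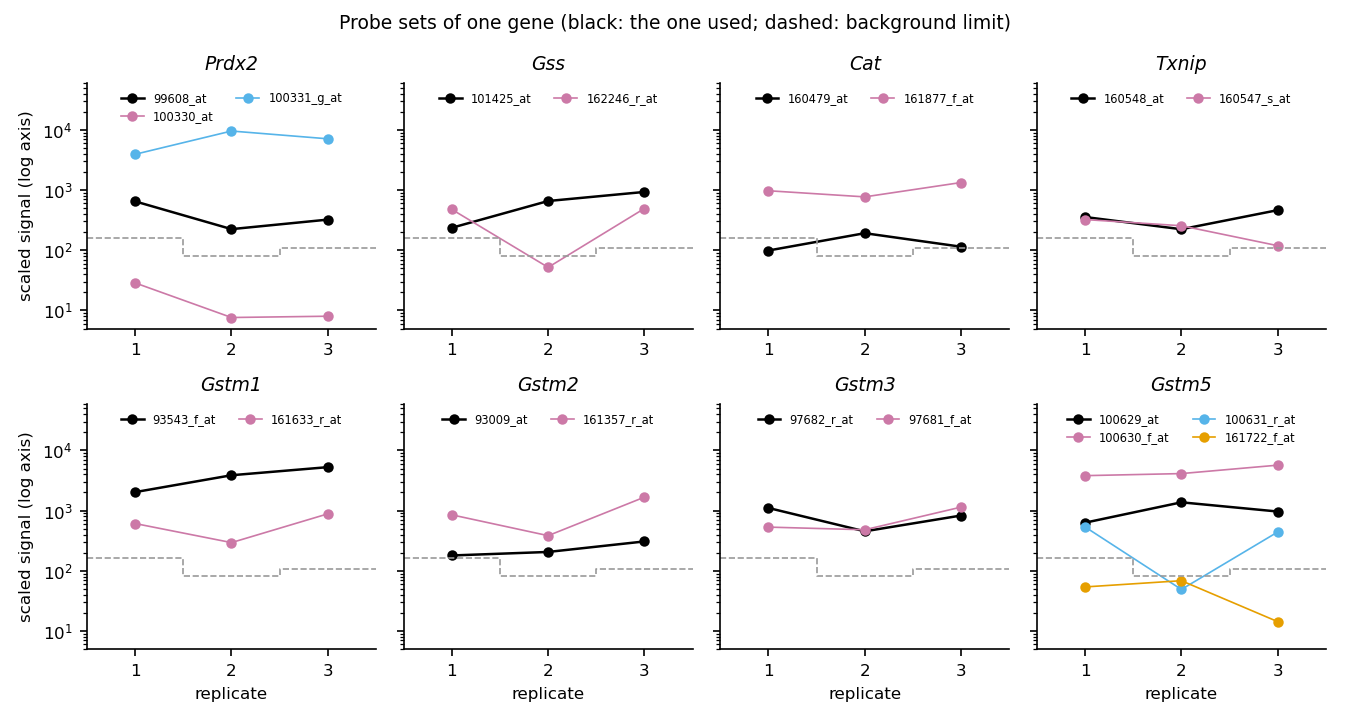
Scaled signal (log axis) of each probe set of 8 genes on the 3 arrays, with the probe set chosen by the rule in black and the background limit dashed; lines only join the values of 1 probe set, since replicates have no order. Prdx2 has one probe set highest in replicate 1 at 647 and one highest in replicate 2 at 9556.

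Promoters of the genes were searched for the core of the antioxidant response element, written TGACNNNGC, on both strands, because this element is the one through which NRF2 acts on the family. The RefSeq promoter table (GRCm38.p6) holds windows of 300 bases, from 250 before to 50 after a start site, for 41 of the 49 genes. Gclc, Gsr, Gsta4, Gstt2, Hmox1, Sod3, Txnl1 and Txnl4a have none in it. A match was found for 6 of the 41 genes (14.6%), and for 16.9% of the 6576 array genes in the table and 14.0% of all its 27025 genes. The share in these genes thus lay between that of the array genes and that of the whole table. A match describes letters only, and its absence says only that these letters are not in the window. The 6 matches are shown because they are the whole of this result, each with 10 bases on either side, 5′ to 3′ on the strand of the gene, with the core or its reverse complement in capitals:

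Gclm (chr3:122245413-122245441, plus strand): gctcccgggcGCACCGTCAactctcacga

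Gsta3 (chr1:21240454-21240482, plus strand): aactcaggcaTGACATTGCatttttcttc

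Gstm5 (chr3:107895802-107895830, plus strand): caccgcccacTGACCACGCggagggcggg

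Sod1 (chr16:90220696-90220724, plus strand): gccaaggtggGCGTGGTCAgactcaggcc

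Txndc5 (chr13:38528034-38528062, minus strand): gcctcgccgcTGACGTGGCgctagccgcc

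Txnrd1 (chr10:82859104-82859132, plus strand): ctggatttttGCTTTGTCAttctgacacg

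The genes with a match did not share an array profile. Gclm and Txnrd1 were highest in replicate 1, while Gstm5, Txndc5 and Sod1 were lowest there (Sod1 not so after quantile normalization). Gsta3 was not above background in that pool, but the limit there exceeds its signals in the other pools as well. Their ranges ran from 0.27 for Sod1 to 2.10 for Txndc5.

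Other genes of the glutathione, thioredoxin and NRF2 pathways had a spread near that of all genes. Of 60 listed genes 44 had a probe set, 31 of these were above background on all arrays, and 7 of the 31 had a range of 1 or more, beside the 28.3% of all genes given above. The median SD of the 31 was 0.36 on the log2 scale. The regulator Nfe2l2 gave 436, 611 and 499, and its relative Nfe2l1 gave 1449.6, 1308 and 1408, each within 1.5-fold over the pools. Keap1, which holds NRF2 in the cytoplasm, was above background in replicate 1 alone, at 214, against 53.7 and 6.10 in replicates 2 and 3. The highest control probe set on the replicate 1 array read 235, above this signal. The replicate 3 signal lies under the 5th percentile of its array, 12.7.

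Of the 7 wide genes of that list, 3 were highest and 4 lowest in replicate 1, beside the 58.5% and 32.4% of all such genes. Srxn1, the sulfiredoxin that reactivates peroxiredoxins, gave 842, 351 and 256. Mgst1, a microsomal glutathione transferase, gave 460.4, 314 and 226, and Ptges, a glutathione-dependent prostaglandin synthase, gave 429.7, 145 and 252. These were highest in replicate 1. Slc3a2, the heavy chain of the cystine-glutamate exchanger, gave 1781, 3043 and 3636. Slc7a11, also of that exchanger but above background in replicate 1 alone, went the other way, at 243, 8.31 and 102. Msrb1, a methionine sulfoxide reductase, gave 309, 764 and 802, and the metallothionein Mt1 gave 1035, 2370.0 and 2071. Ptgds, a prostaglandin synthase made by cells around the retina, gave 889, 12449 and 6736, a 14.0-fold range and the widest of the 7. The probe set used for Ptgds carries the suffix _r. Slc3a2, Msrb1, Mt1 and Ptgds were lowest in replicate 1. The summed signals of the pigment epithelium and connective tissue markers were lowest there, as were those of the rod, Müller glia, lens, red blood cell and muscle markers. The part of any of these tissues in the signal of the 4 genes was not tested.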

How the data were processed

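Neural retina RNA of 3 pools of Rp1-/- mice was measured on U74Av2 arrays, 1 array per pool, and the members and gene lists were chosen with earlier results of these data known. The authors' deposited table gives linear intensities for 12488 probe sets, none at or below 0. The software, background correction and scaling used by the authors are not given in the sources used here. The trimmed mean (2% at each end) of the deposited intensities was 500.2, 500.3 and 500.2 in replicates 1, 2 and 3, so they are on a common scale.

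Each array was multiplied by a factor (0.998, 1.00 and 1.00) that equalised the trimmed means, controls left out. Before log2, an array's 5th percentile served as the lowest allowed signal. The background limit (95th percentile of 19 foreign-RNA controls) describes signal and is no detection call. Gene symbols came from the platform annotation, in which 10833 probe sets carry 1 symbol, 396 several and 1193 none; only the first kind was used. For a gene with several probe sets a plain _at suffix was preferred, then the highest mean. A fold against an array where the gene was not above background is the higher signal over that array's limit, or over the gene's own signal if higher, and is written "at least".

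Every member was named. Signals on each array are given for members above background on some or all arrays, and the range for members above it on none. In the second list, the genes with a range of 1 or more, Nfe2l2 and Keap1 were given, and Nfe2l1 and Slc7a11 were added after their values were seen. With 1 group no test was made, and counts stand beside those over all genes. Nothing says that the pools share no litter, so the spread describes these samples only. The number of arrays limits the precision. Range and SD computations were tested on simulated data. Alternatives for the limit, scaling, floor, pseudocount, threshold and probe set were tried, and each replicate was left out in turn. Python 3.11.15, numpy 2.4.6, pandas 2.3.3, scipy 1.17.1 and matplotlib 3.10.9 were used.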

Additional observations from a re-analysis of the deposited data

How the results depend on the processing

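Several descriptions depend on the setting. With the median control as limit, the share of genes with a wide range was no longer above that of all genes (42.6% against 42.9%). It stayed above at the other limits tried. With a common array median, 12, 19 and 8 genes were highest in replicates 1, 2 and 3 in place of 16, 14 and 9. Counts over all genes were not taken under that scaling. The highest array changed for 5 of the 39 genes with it, or for 7 after quantile normalization. The median deviations of the 39 genes changed sign with the scaling, the limit, the probe set rule or a left-out replicate: in replicate 1 the deviation was 0.12, but -0.22 with a common array median and -0.14 after quantile normalization. The count of 39 genes above background ran from 34, with the highest control as limit, to 47, with the median control. Of all genes, 55.5% and 85.8% were above the same limits. A limit of either the highest control or each array's 40th percentile left 1 gene, not 2, whose probe sets shared the highest array. A threshold of 1.5-fold raised the 15 wide genes to 29 (74.4%, against 60.7% of all genes). Leaving out 1 replicate gave between 4 and 10 wide genes: 4 without replicate 1 (Gstm3, Prdx3, Txnip and Txnl4a), 9 without replicate 2 and 10 without replicate 3, with fewer arrays to span the range. These were 8.89%, 23.1% and 25.6% of the members above background, against 5.73%, 17.8% and 22.0% of all genes. Between 19 and 28 genes were then highest in replicate 2 and between 17 and 21 in replicate 3, because only a pair of arrays competed. Of the 15 wide genes, 12 remained under common-median scaling (20 in all; Gpx1, Gstm3 and Txnip were lost), 13 under quantile normalization (Gpx1 and Txnip lost) and 11 with the mean of all probe sets (12 in all). In all, 51.3%, 38.5% and 31.6% of members above background were wide under these settings, against 34.2%, 25.5% and 27.9% of all genes. Adding 50 to each signal left 12 (30.8%, against 22.3% of all genes) and lost Gpx1, Sod3 and Txnip. No paired analysis was possible because there is 1 group and the labels number no replicates. Signals near the background limit, such as Gpx5, Gstm2 and Nqo1, are the least certain. With the highest control as limit, these genes, Prdx4 and Txndc5 were no longer above background on every array.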

Other observations

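Peroxiredoxin 1 and glutaredoxin 3 were measured by probe sets that carry a second gene symbol each and so fall outside the set described above. The probe sets listed for Prdx1 and Gm21399 gave 3110 in replicate 1, 5911 in replicate 2 and 4916 in replicate 3, and 1432, 5770.2 and 4644, both lowest in replicate 1 and highest in replicate 2. The probe sets listed for Glrx3 and Gm12669 gave 1902, 2005 and 2267, and 856, 1625 and 1132, which are both lowest in replicate 1 but highest in different pools.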
